A study of Mus musculus with 6 samples.

Results

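The genes described here are 8 transcripts used to follow the sympathetic nerve fibres and Schwann cells of the heart: Th, Ddc and Dbh of noradrenaline synthesis, and Sox10, S100b, Mbp, Cnp and Pmp22 of Schwann cells. They were taken by symbol from the gene tables, where all 8 of them were found among 17891 genes, and a gene not listed in a sample was set to 0 there. Gene expression was measured by RNA sequencing of myocardium from C57BL/6 mice at 6 weeks of age, in 3 NS-DADm samples and 3 wild type (WT) samples. In NS-DADm animals both nuclear corepressors, NCOR and SMRT, are mutated by knock-in in the deacetylase activating domain, through which they bind and activate the histone deacetylase HDAC3. The knock-in is present in the whole body, so that nerves and glia carry it as well as heart muscle. The labels name no treatment for either group, and the comparison asks what the mutations change in heart muscle RNA. Separate mice per sample are not stated, so a p-value here covers the spread between samples, which may be technical.

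Sympathetic nerves reach the heart as axons of neurons whose cell bodies lie mostly in ganglia outside it, and they release noradrenaline, which raises heart rate and force. Noradrenaline is made from tyrosine by tyrosine hydroxylase (Th), which is rate-limiting, then by DOPA decarboxylase (Ddc) and dopamine beta-hydroxylase (Dbh). Schwann cells accompany these axons, mostly without wrapping them in myelin. They depend on the transcription factor SOX10 and hold the calcium-binding protein S100B. Mbp, Pmp22 and Cnp encode myelin basic protein, peripheral myelin protein 22 and a cyclic nucleotide phosphodiesterase of myelin, but all of them are also transcribed outside myelin. Since axons carry little RNA, heart tissue is a poor source of neuronal transcripts. In a bulk sample, fewer cells of a type and less RNA per cell cannot be told apart.

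Of the 8 genes, 7 had enough counts to be tested, and 2 of them changed: Dbh fell and Pmp22 rose in NS-DADm myocardium. Ddc, Sox10, S100b, Mbp and Cnp did not pass, and Th was too low to test. Total expected counts were 12262523 to 12758311 in the NS-DADm libraries and 10183792 to 11205221 in the WT libraries, so that the NS-DADm libraries were deeper. Changed means an adjusted p under 0.05 in the quasi-likelihood test of edgeR, with p-values adjusted by Benjamini and Hochberg's method over 13130 tested genes, of which 3.2% changed in either direction, 1.79% upward and 1.41% downward. The FPKM values of the groups did not overlap for 2 of the 8 genes, the same pair, against 23.4% of all tested genes, so that this share is near the background. The median log2 fold change was -0.28 over the 7 tested genes, against 0.0 over all tested genes. An unadjusted p under 0.05 was found for 3 of the 7, Dbh, Ddc and Pmp22, and for 2370 of all tested genes, or 18.1%.

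The promoters of Dbh and Th are shown because Dbh changed and Th had counts in NS-DADm samples alone, and those of Pmp22 because its transcripts start at several places. The sequences are RefSeq windows of build GRCm38.p6 that run from 250 bases before to 50 bases after the annotated start, which were available for 6 of the 8 genes. In the first pair, capitals mark ATTA on either strand, the core of many homeodomain binding sites, and TGACGTCA, the cyclic AMP response element. In the second pair, capitals mark the 50 bases after the start. The Dbh window is chr2:27165257-27165556 on the plus strand, the Th window is chr7:142899946-142900245 on the minus strand, and the Pmp22 windows are chr11:63128732-63129031 and chr11:63131207-63131506 on the plus strand.
Dbh: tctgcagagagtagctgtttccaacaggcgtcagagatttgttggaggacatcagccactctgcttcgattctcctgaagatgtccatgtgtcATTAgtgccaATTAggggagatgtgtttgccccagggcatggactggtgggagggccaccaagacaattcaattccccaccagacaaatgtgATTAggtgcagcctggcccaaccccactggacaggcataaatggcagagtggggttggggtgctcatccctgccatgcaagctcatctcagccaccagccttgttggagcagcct
Th: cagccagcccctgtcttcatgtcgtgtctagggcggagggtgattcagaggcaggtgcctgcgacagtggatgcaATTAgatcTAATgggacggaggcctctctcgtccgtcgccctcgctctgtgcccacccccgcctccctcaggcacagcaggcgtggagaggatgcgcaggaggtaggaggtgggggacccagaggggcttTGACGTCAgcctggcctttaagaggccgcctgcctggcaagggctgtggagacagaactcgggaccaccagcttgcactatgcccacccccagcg
Pmp22 first start: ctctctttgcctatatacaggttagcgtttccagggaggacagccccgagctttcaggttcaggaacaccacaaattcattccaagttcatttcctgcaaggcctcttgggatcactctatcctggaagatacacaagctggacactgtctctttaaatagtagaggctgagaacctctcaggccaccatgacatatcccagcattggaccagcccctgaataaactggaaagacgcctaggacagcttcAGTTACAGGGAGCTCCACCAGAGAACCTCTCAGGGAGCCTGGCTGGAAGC
Pmp22 second start: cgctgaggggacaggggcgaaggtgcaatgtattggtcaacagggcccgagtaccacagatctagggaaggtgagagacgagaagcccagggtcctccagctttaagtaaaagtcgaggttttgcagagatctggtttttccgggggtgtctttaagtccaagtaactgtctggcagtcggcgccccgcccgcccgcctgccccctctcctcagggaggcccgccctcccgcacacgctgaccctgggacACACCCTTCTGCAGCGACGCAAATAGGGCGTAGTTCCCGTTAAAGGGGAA
The Dbh window held ATTA 3 times, at positions -157, -147 and -65 from the start, and the Th window held it 2 times, at -175 and -167. ATTA on either strand was found in 58.0% of 32851 promoter windows. The Th window held TGACGTCA at position -45, against 1.79% of all windows, and the Dbh window did not hold these letters. Bases G and C made up 50.7% of the first Pmp22 window and 60.0% of the second, against a median of 52.7% over all windows.

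**Figure D1:**
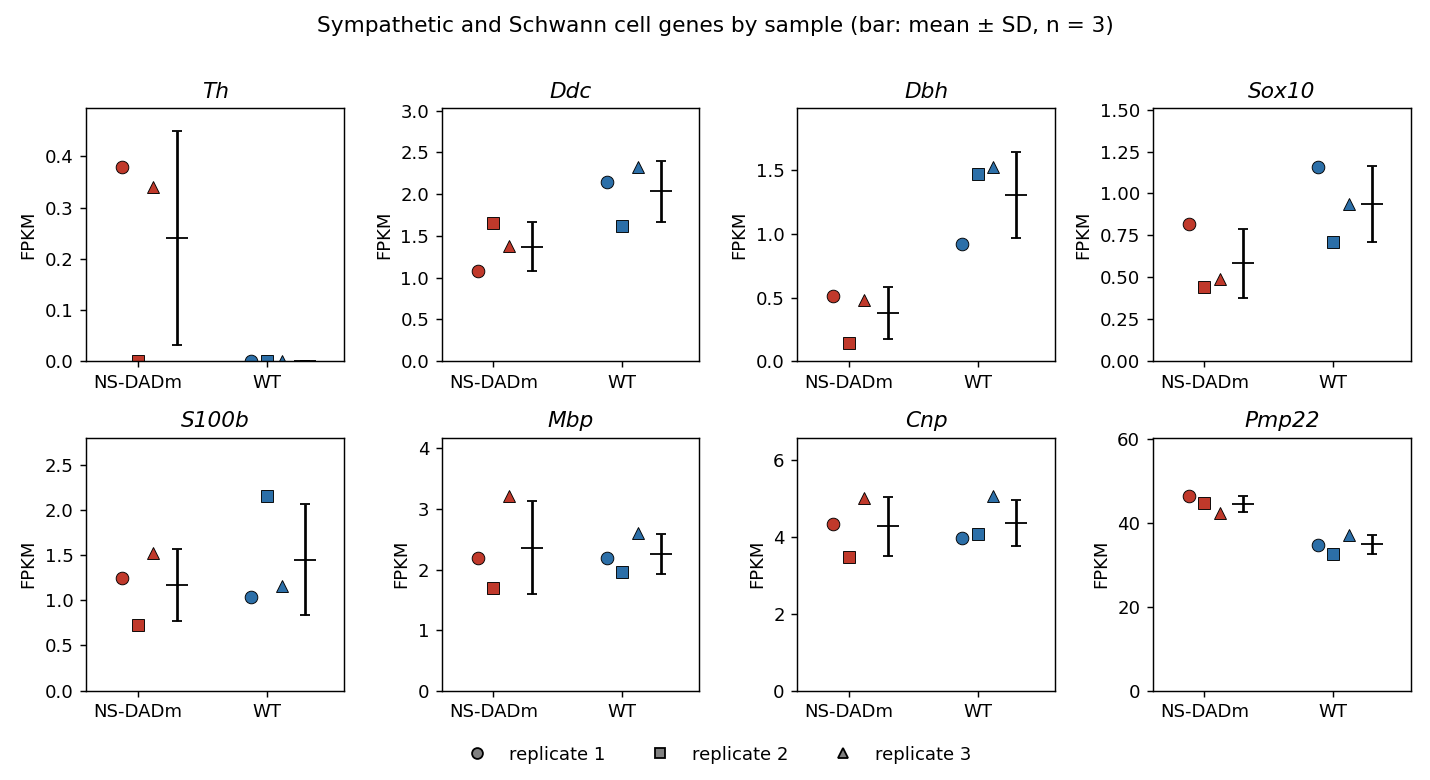
FPKM of the 8 genes in each of the 3 NS-DADm and 3 WT samples, with 1 panel per gene, a marker shape per replicate number and bars for the mean ± SD. All NS-DADm points lie below all WT points for Dbh and above them for Pmp22, and Th is above 0 in NS-DADm 1 and NS-DADm 3.

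Th was nearly absent. It had 8, 0 and 7 expected counts in NS-DADm 1, 2 and 3, against 0 counts in each WT sample, which corresponds to 0.38, 0 and 0.34 FPKM in NS-DADm. FPKM is the expected count, the estimated number of reads of a gene, scaled by transcript length and by the size of the library. A count of 0 allows up to 3 counts, or 0.157 to 0.174 FPKM of Th in the WT samples (counting error only). Against a floor of 3 counts over the whole WT group, the 15 pooled NS-DADm counts of Th were at least 4.3-fold higher, and with the counting error of those 15 the lower 95% exact limit of the ratio was 3.09. The counts came from 2 of the 3 NS-DADm libraries, so that the groups overlap at 0.

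Ddc, the second enzyme of the pathway, had 1.08, 1.66 and 1.38 FPKM in NS-DADm, against 2.15, 1.62 and 2.33 FPKM in WT. WT 2 lay within the NS-DADm range, so that the groups overlapped. The log2 fold change was -0.54 (SE 0.24) and did not pass (adjusted p = 0.274, edgeR). Nearly all of its counts were assigned to a transcript model of 2018 bases, at 1.08, 1.16 and 1.38 FPKM in NS-DADm, against 2.15, 1.62 and 2.31 FPKM in WT (log2 fold change -0.72, SE 0.27, adjusted p = 0.415 over all transcripts, edgeR). The other model, of 1967 bases, had 12.18 counts in NS-DADm 2, 0.28 in WT 3 and none elsewhere. In the RefSeq annotation 2 other genes overlap Ddc, and whether counting used the strand is not given in the sources used here.

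Dbh, which turns dopamine into noradrenaline, fell in NS-DADm. Its counts were 14, 4 and 13 in NS-DADm and 22, 33 and 38 in WT, or 0.51, 0.14 and 0.48 FPKM in NS-DADm, against 0.92, 1.47 and 1.53 FPKM in WT. Every NS-DADm sample lay below every WT sample, although all were low in absolute terms. The means were 0.377 ± 0.21 FPKM in NS-DADm and 1.31 ± 0.34 FPKM in WT (SD, n = 3 each). Dbh was 3.4-fold lower (log2 fold change -1.77, SE 0.41, adjusted p = 0.047, edgeR), and its fall was the 16th largest of the 185 genes called lower. The pooled counts, 31 in NS-DADm and 93 in WT, give a depth-adjusted ratio of 0.287 (95% exact interval 0.185 to 0.435, counting error only). The call lies close to the threshold: leaving out any 1 sample ended it (adjusted p = 0.0721 to 0.174, edgeR), and so did limma on log2(FPKM + 0.1) (adjusted p = 0.0725). On the log2(FPKM + 1) scale, which understates changes of low genes, the log2 difference was -0.75.

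The markers of sympathetic neurons did not all point one way in WT. Th was at 0 in all WT samples. Slc6a2, the noradrenaline transporter, was at most 0.08 FPKM in any sample. Slc18a2, which loads monoamines into vesicles, was at 1.37 ± 0.21 FPKM in NS-DADm and 1.76 ± 0.57 FPKM in WT, and Stmn2, a microtubule regulator of neurons, at 4.29 ± 0.13 FPKM in NS-DADm and 4.38 ± 0.24 FPKM in WT. Which cells the Dbh and Ddc reads came from was not tested, and the enzymes are called by their gene names here.

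The samples also differed in atrial transcripts. The summed FPKM of 5 atrial markers (Sln, Myl4, Myl7, Nppa and Bmp10) was 3740, 570.9 and 6542 in NS-DADm 1, 2 and 3, against 531.5, 268.8 and 4653 in WT 1, 2 and 3. Among the libraries with high atrial levels, Dbh was at 0.51 and 0.48 FPKM in NS-DADm 1 and 3 and at 1.53 FPKM in WT 3. Among those with low atrial levels, it was at 0.14 FPKM in NS-DADm 2 and at 0.92 and 1.47 FPKM in WT 1 and 2. The NS-DADm values were below the WT values in each set, but each set had 1 sample of one of the groups, so neither difference was tested. With a score of these markers as a covariate over all 6 samples, the log2 fold change of Dbh was -2.0 (adjusted p = 0.0243, edgeR). The part of atrial tissue in the Dbh values was not tested.

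Th, Npy and Snap25, all at low levels, were found only in libraries with high atrial levels. Npy and Snap25 were chosen after their values were seen. The libraries with Th counts were NS-DADm 1 and 3. Npy, a peptide of sympathetic neurons, was at 1.10, 0 and 0.96 FPKM in NS-DADm, against 0, 0 and 0.17 FPKM in WT. Snap25, a protein of the synaptic vesicle fusion machinery, was at 0.62, 0 and 0.32 FPKM in NS-DADm, against 0, 0 and 0.13 FPKM in WT. Of 29 genes of sympathetic neurons, 27, 15 and 25 had counts in NS-DADm 1, 2 and 3, and 18, 18 and 21 in WT 1, 2 and 3. In both groups, the libraries with high atrial levels listed more of them, but these libraries also listed more genes of any kind. All genes listed numbered 16168, 15961 and 16213 in NS-DADm 1, 2 and 3, and 15851, 15654 and 16124 in WT 1, 2 and 3. The part of atrial transcripts in the Th counts was not tested, and WT 3, with a high atrial level, had none.

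**Figure D2:**
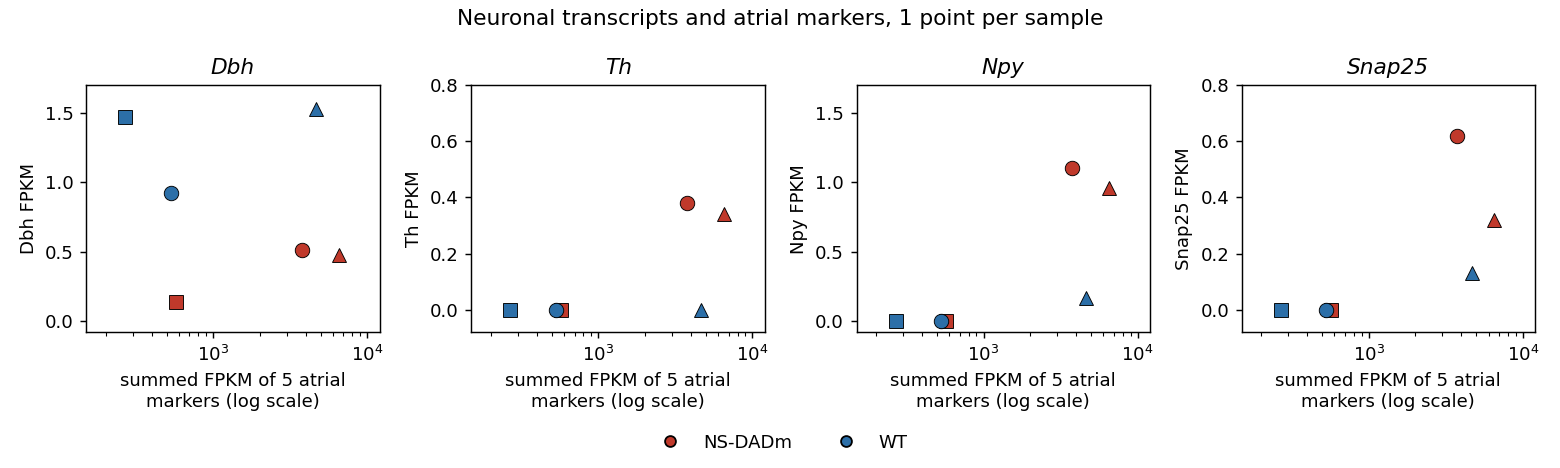
FPKM of Dbh, Th, Npy and Snap25 against the summed FPKM of 5 atrial markers (log scale), 1 point per sample. Th, Npy and Snap25 are at 0 in the 3 samples with the lowest atrial sums, while Dbh is lower in NS-DADm at low and at high sums. Other genes of the sympathetic neuron list are not shown.

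Among other genes of the sympathetic neuron list, 8 of 29 were tested and 0 changed, with a median log2 fold change of 0.2. At an unadjusted p under 0.05, where 18.1% of all tested genes stood, there were 3, Hand2, Gata2 and Uchl1, also the most abundant of the list, and DESeq2's Wald test called 1, Hand2. Hand2, a transcription factor of sympathetic neurons and of heart muscle, was at 47.7 ± 4.8 FPKM in NS-DADm and 38.0 ± 4.5 FPKM in WT (adjusted p = 0.0924, edgeR). Gata2, which is also an endothelial factor, was at 9.23 ± 0.36 FPKM in NS-DADm and 7.59 ± 1.1 FPKM in WT (adjusted p = 0.156, edgeR). The ubiquitin hydrolase gene Uchl1 was at 5.98 ± 0.91 FPKM in NS-DADm and 8.74 ± 0.83 FPKM in WT (adjusted p = 0.113, edgeR). The list had 22 genes with a mean under 0.5 FPKM.

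Genes that supply, store and break down catecholamines were expressed, but none of the 11 tested of 15 passed. With edgeR 4 of the 11 had an unadjusted p under 0.05, against 18.1% of all tested genes, and DESeq2's Wald test called 0. Among the most abundant were Spr and Pts, which make the Th cofactor tetrahydrobiopterin. Spr was at 48.8 ± 4.6 FPKM in NS-DADm and 57.2 ± 4.1 FPKM in WT, and Pts at 37.9 ± 1.8 FPKM in NS-DADm and 44.2 ± 3.2 FPKM in WT (adjusted p = 0.241 and 0.253, edgeR). Cyb561, an electron carrier of the vesicle membrane that supports Dbh, came closest to the threshold, at 9.41 ± 0.62 FPKM in NS-DADm and 7.56 ± 0.12 FPKM in WT (log2 fold change 0.34, SE 0.08, adjusted p = 0.0548, edgeR). The median log2 fold change of the list was 0.03.

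Of 8 cholinergic genes, only 2 were tested and 1 changed, against 3.2% of all tested genes. Bche, a cholinesterase that is made in many tissues, fell to 3.52, 4.20 and 4.64 FPKM in NS-DADm, against 5.89, 6.34 and 6.22 FPKM in WT (log2 fold change -0.55, SE 0.10, adjusted p = 0.0196, edgeR). Its call ended without NS-DADm 1, WT 1 or WT 2 and with limma on both log scales (adjusted p = 0.0519 to 0.0936). Ache, the synaptic cholinesterase, was at 1.16 ± 0.33 FPKM in NS-DADm and 1.01 ± 0.52 FPKM in WT. Chat, Slc18a3 and Slc5a7, which define cholinergic neurons, were at most 0.21 FPKM in any sample, and Chrnb4, a subunit of nicotinic receptors of ganglia, at most 0.19 FPKM.

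Schwann cell transcripts were present in every library. Sox10, the transcription factor that Schwann cells require, had 0.82, 0.44 and 0.49 FPKM in NS-DADm, against 1.16, 0.71 and 0.94 FPKM in WT. The lowest WT sample lay below the highest NS-DADm sample. The log2 fold change was -0.65 (SE 0.32) and did not pass (adjusted p = 0.321, edgeR).

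S100b, a calcium-binding protein of glia that adipocytes also make, had 1.25, 0.73 and 1.52 FPKM in NS-DADm, against 1.04, 2.15 and 1.16 FPKM in WT. The groups overlapped, and WT 2 stood above all others. The log2 fold change of -0.28 (SE 0.37, adjusted p = 0.745, edgeR) became 0.11 without WT 2. The summed FPKM of 5 adipocyte markers, of which 4 were tested and 0 changed (1 with an unadjusted p under 0.05 in edgeR, 0 called by DESeq2's Wald test), was 13.62, 1.98 and 74.17 in NS-DADm 1, 2 and 3, against 7.23, 1.2 and 15.45 in WT 1, 2 and 3, and their part in the S100b values was not tested.

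Other genes of the Schwann cell lineage gave no call. Of 15 genes, 10 were tested, 0 changed with edgeR or with DESeq2's Wald test, and all 10 had a negative log2 fold change, with a median of -0.4, where 50.7% of all tested genes had a negative one. Of these, 6 had an unadjusted p under 0.05, against 18.1% of all tested genes. The groups did not overlap in 5 of the 10, against the 23.4% of all tested genes given above. Matn2, a matrix protein of nerve sheaths and other tissues and the most abundant of the list, was at 7.97, 7.05 and 7.26 FPKM in NS-DADm, against 9.04, 9.73 and 10.11 FPKM in WT, and missed the threshold narrowly (log2 fold change -0.35, SE 0.08, adjusted p = 0.0505, edgeR). It passed with DESeq2 size factors, without a filter on low counts, with a minimum mean FPKM of 1 and with a replicate block (adjusted p = 0.0437 to 0.0495), and failed in the other alternatives (up to 0.163).

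L1cam, an adhesion molecule of axons and non-myelinating Schwann cells, was at 0.643 ± 0.16 FPKM in NS-DADm and 1.18 ± 0.14 FPKM in WT (log2 fold change -0.84, SE 0.22, adjusted p = 0.0732, edgeR). Of its 14 alternatives, L1cam passed in 1, the replicate block (edgeR adjusted p = 0.0259). Gpm6b, a membrane protein of neurons and glia, and Scn7a, a sodium channel of non-myelinating Schwann cells, followed Matn2 in abundance. Gpm6b was at 7.97 ± 0.47 FPKM in NS-DADm and 8.20 ± 0.13 FPKM in WT, and Scn7a at 5.79 ± 0.39 FPKM in NS-DADm and 6.85 ± 0.44 FPKM in WT (adjusted p = 0.933 and 0.175, edgeR). The summed FPKM of all 15 genes was 31.9, 27.41 and 30.66 in NS-DADm, against 36.31, 37.52 and 39.41 in WT. These sums did not overlap, but this was not particular to the Schwann cell list. Sums of the mural cell and cholinergic lists were also lower in NS-DADm without overlap. Those of the sympathetic neuron and macrophage lists were higher without overlap. The sympathetic neuron sums were 82.35, 71.44 and 69.77 in NS-DADm, against 65.98, 61.31 and 68.1 in WT. Most of each was Hand2, which heart muscle also makes, at 51.75, 48.86 and 42.43 FPKM in NS-DADm, against 41.22, 32.83 and 39.84 FPKM in WT. These sums therefore say little about the other genes of that list. For mural cell markers the sums were 286.0, 276.4 and 248.1 in NS-DADm, against 327.4, 317.5 and 307.3 in WT.

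Genes of peripheral myelin were scarce. Of 18 genes, 15 had a mean under 0.5 FPKM, 5 were tested and 0 changed with edgeR or with DESeq2's Wald test, 1 with an unadjusted p under 0.05, and the median log2 fold change was -0.03. Mag was at 0.07 FPKM in NS-DADm 1 and was not listed in any other sample. The most abundant genes of the list, Mal, Arhgef10 and Gjc3, are not limited to myelin. Mal was at 8.05 ± 1.9 FPKM in NS-DADm and 10.9 ± 1.6 FPKM in WT (adjusted p = 0.207, edgeR), Arhgef10 at 4.54 ± 0.22 FPKM in NS-DADm and 4.70 ± 0.30 FPKM in WT, and Gjc3 at 1.5 ± 0.3 FPKM in NS-DADm and 1.71 ± 0.25 FPKM in WT. Of 7 markers of oligodendrocytes, the myelinating cells of the brain, 5 were not listed in any sample and the others were at most 0.14 FPKM.

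Mbp had 2.19, 1.69 and 3.21 FPKM in NS-DADm, against 2.19, 1.96 and 2.61 FPKM in WT. The WT range lay within the NS-DADm range, and the log2 fold change of 0.31 (SE 0.24) did not pass (adjusted p = 0.543, edgeR). The fold change is computed from counts, while FPKM is also scaled by the length of the models to which the counts were assigned. The Mbp gene has an upstream start, which gives the golli transcripts, and a start 79.4 kilobases further on (GENCODE M21) from which the myelin proteins are made. Models of the upstream start held 70.9%, 60.6% and 71.5% of the Mbp counts in NS-DADm, against 38.2%, 45.8% and 55.0% in WT. All NS-DADm shares were higher than all WT shares.

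The mean share was 67.7% ± 6.13 in NS-DADm and 46.3% ± 8.46 in WT (SD, n = 3 each, two-sided exact permutation p = 0.1, the smallest that 3 against 3 samples allow). The longest model alone, of 4820 bases, held 70.9%, 60.6% and 59.5% in NS-DADm, against 32.1%, 45.8% and 55.0% in WT. Of 3068 genes with several models and enough counts, 10.6% had shares of the longest model that did not overlap. Its log2 fold change was 0.81 (SE 0.42, adjusted p = 0.568 over all transcripts, edgeR). Models of the downstream start had 26.5, 26.4 and 34.8 counts in NS-DADm, against 36.5, 28.7 and 38.7 in WT, and these overlapped. This split was examined after the values were seen, and it depends on how reads in exons that models share were divided.

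Markers of immune cells, which also make golli transcripts, were measured beside these shares. Of 5 macrophage markers, 2 rose, where 1.79% of all tested genes did. These were Csf1r and C1qa, with 1.36-fold and 1.41-fold changes (adjusted p = 0.0195 and 0.00405, edgeR). The summed FPKM of the 5 was 122.9, 113.4 and 118.8 in NS-DADm, against 91.42, 83.71 and 86.5 in WT. The call of Csf1r ended without NS-DADm 1, NS-DADm 2, WT 1 or WT 2 (adjusted p up to 0.0961). Of 5 T cell markers, 0 were tested, and their sum was 1.1 to 1.73 FPKM in NS-DADm and 0.88 to 1.92 FPKM in WT. The part of these cells in the Mbp values was not tested.

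Cnp, the phosphodiesterase of myelin that many other cells express at a low level, had 4.33, 3.47 and 5 FPKM in NS-DADm, against 3.96, 4.06 and 5.05 FPKM in WT. The groups overlapped almost fully. The log2 fold change was -0.02 (SE 0.16, adjusted p = 0.965, edgeR) and lay between -0.18 and 0.1 in the alternatives. A model of 2548 bases held 4.52%, 6.41% and 0% of its counts in NS-DADm, against 7.48%, 17.3% and 13.9% in WT. These shares did not overlap (two-sided exact permutation p = 0.1), but they rest on 0 to 18 counts per sample. Of 3068 genes with several models and enough counts, 10.6% had shares of the longest model without overlap. The longest-model shares of Pmp22 and Ddc overlapped. Cnp overlaps the protein-coding gene Dnajc7 in the RefSeq annotation, so some reads could belong to either.

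Pmp22 was by far the most abundant of the 8 genes, and it rose in NS-DADm. It had 46.42, 44.84 and 42.49 FPKM in NS-DADm, against 34.88, 32.72 and 37.28 FPKM in WT. The lowest NS-DADm sample stood above the highest WT sample. The means were 44.6 ± 2.0 FPKM in NS-DADm and 35 ± 2.3 FPKM in WT (SD, n = 3 each), a 1.3-fold rise (log2 fold change 0.37, SE 0.07, adjusted p = 0.0242, edgeR). By size it ranked 196th of the 235 genes called higher. Leaving out NS-DADm 1, NS-DADm 2, WT 1 or WT 2 ended the call (adjusted p = 0.0713 to 0.12, edgeR), with log2 fold changes between 0.34 and 0.37.

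**Figure D3:**
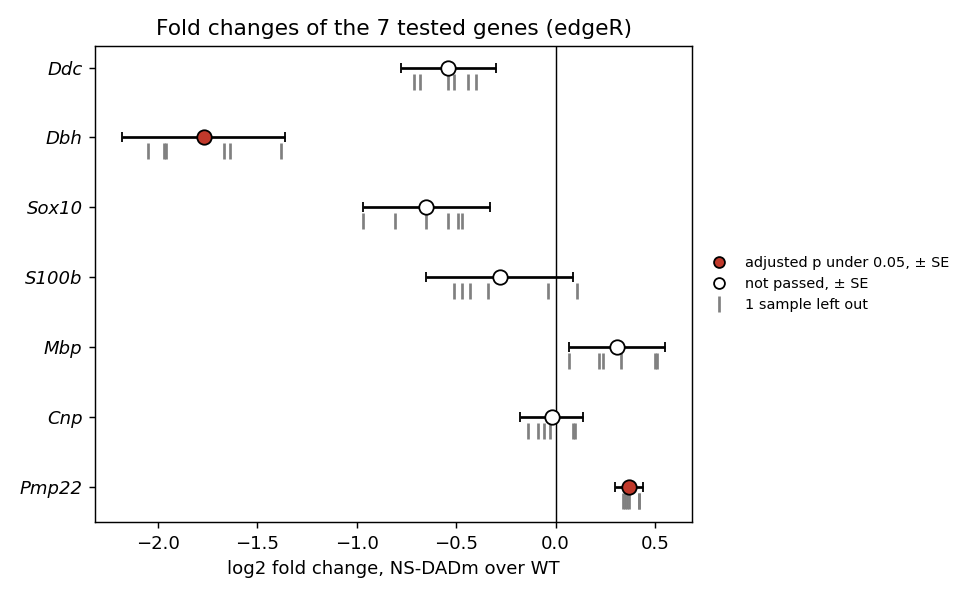
Log2 fold change, NS-DADm over WT, of the 7 tested genes with its SE (edgeR), and the values with 1 sample left out as grey ticks. Dbh at -1.77 and Pmp22 at 0.37 passed the threshold, and the ticks of S100b and Cnp fall on both sides of 0.

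In rodents the first start of Pmp22 is used mainly by myelinating Schwann cells and the second by other tissues. Models that GENCODE M21 places at the first start held 44.2%, 44.2% and 34.3% of Pmp22 counts in NS-DADm, against 36.9%, 49.6% and 36.0% in WT. Those at the second start, 2.53 kilobases further on, held 55.8%, 55.8% and 57.8% in NS-DADm, against 63.1%, 50.4% and 60.9% in WT. The shares overlapped at both starts (two-sided exact permutation p = 1.0 and 0.9). The first start was at 18.5 ± 3.3 FPKM in NS-DADm and 14.3 ± 1.8 FPKM in WT, and the second at 25 ± 0.69 FPKM in NS-DADm and 20.3 ± 3.4 FPKM in WT (SD, n = 3 each). The model of a start 3.59 kilobases on had 73.1 counts in NS-DADm 3, 23.6 in WT 3 and none in the other samples. In all, 21 models of the 8 genes were listed, 12 were tested and 0 changed in edgeR or in any alternative, DESeq2's Wald test included, 2 with an unadjusted p under 0.05, where 0.0972% of 17498 transcripts changed (edgeR).

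**Figure D4:**
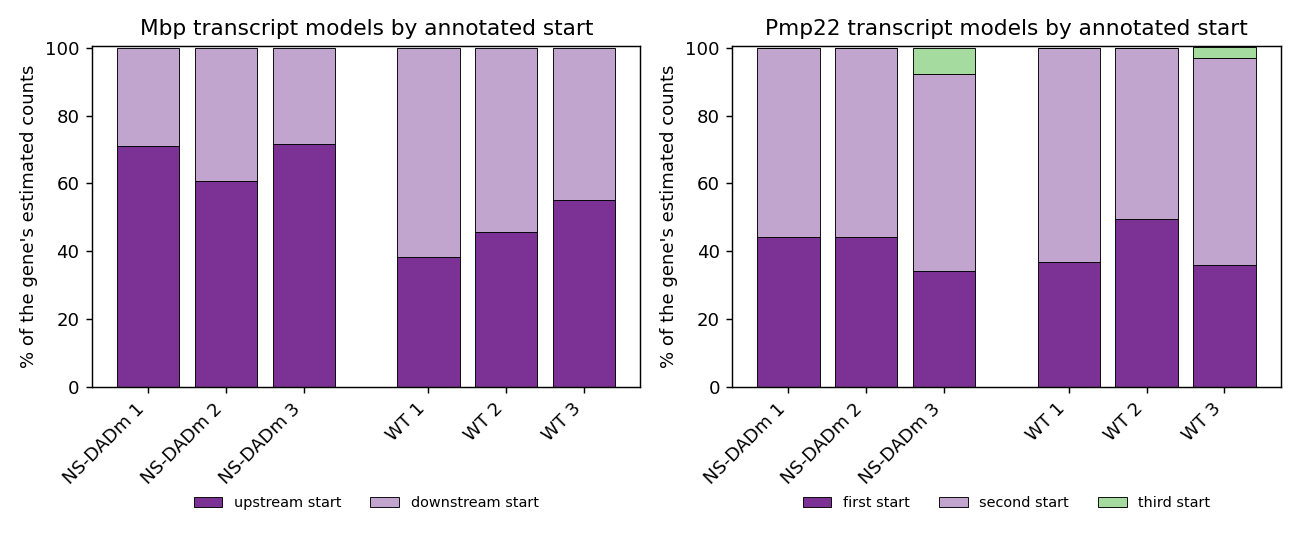
Share of each sample's estimated Mbp and Pmp22 counts by the annotated start of the transcript model, in percent, NS-DADm samples on the left of each panel. The upstream start of Mbp holds 60.6% to 71.5% in NS-DADm and 38.2% to 55.0% in WT, while the Pmp22 shares overlap.

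By level, the order in NS-DADm was Pmp22, Cnp (4.27 ± 0.77 FPKM), Mbp (2.36 ± 0.77), Ddc (1.37 ± 0.29), S100b (1.17 ± 0.40), Sox10 (0.583 ± 0.21), Dbh (0.377 ± 0.21) and Th, and in WT it was Pmp22, Cnp (4.36 ± 0.60 FPKM), Mbp (2.25 ± 0.33), Ddc (2.03 ± 0.37), S100b (1.45 ± 0.61), Dbh (1.31 ± 0.34), Sox10 (0.937 ± 0.23) and Th. Dbh and Sox10 stood in opposite order in the groups, but their sample ranges overlapped in each. In NS-DADm the ranges of neighbours in this order overlapped from Ddc downward, and in WT from Mbp down to Sox10.

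Ligands that guide or sustain nerves were measured as well. Of 17 such genes, 11 were tested and 1 changed, against 3.2% of all tested genes, with a median log2 fold change of -0.08. Sema3f, a repellent guidance cue, rose to 8.23, 7.5 and 7.26 FPKM in NS-DADm, against 5.21, 3.99 and 4.67 FPKM in WT, with no overlap (log2 fold change 0.75, SE 0.11, adjusted p = 0.00602, edgeR). This call held in all 15 alternatives (adjusted p up to 0.0344). Nrtn, which encodes neurturin, was at 11.9 ± 2.7 FPKM in NS-DADm and 17.7 ± 5.2 FPKM in WT (adjusted p = 0.2, edgeR).

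**Figure D5:**
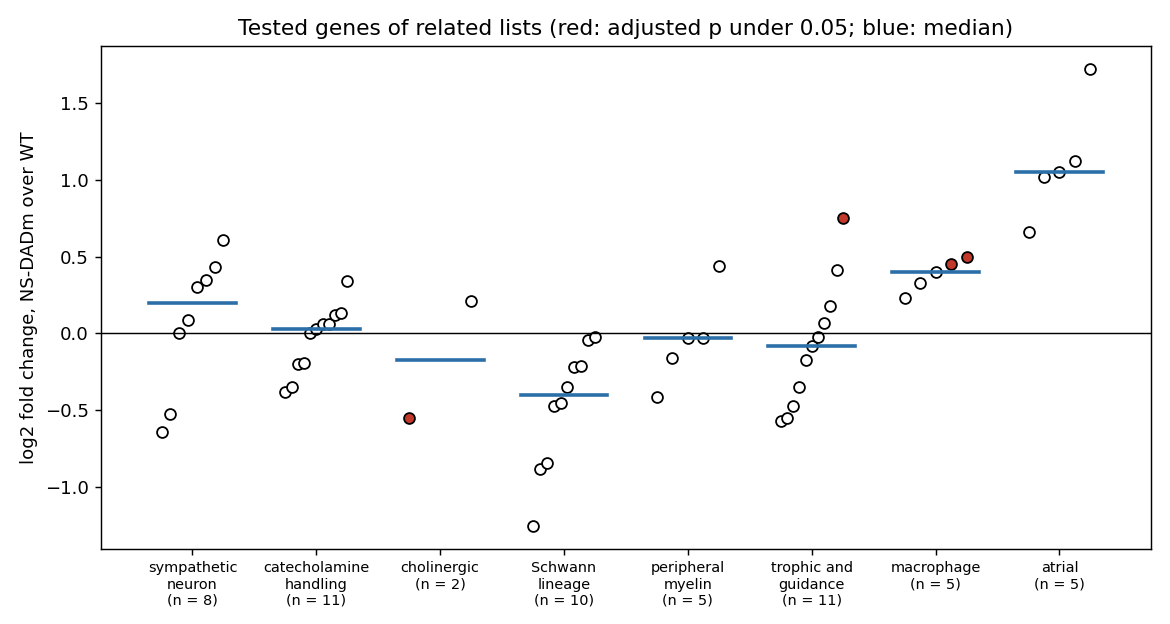
Log2 fold changes, NS-DADm over WT, of the tested genes of 8 related lists, 1 point per gene, red where the adjusted p is under 0.05, with the list median as a blue line. All 10 Schwann lineage genes lie below 0 without a call, and Sema3f, Bche, Csf1r and C1qa are the genes that passed.

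Markers of other cell types gave 1 further call. Sox10 is also active in melanocytes. Of 5 melanocyte markers, 3 were tested and Dct rose, where 1.79% of all tested genes did. Dct, an enzyme of melanin synthesis, was at 4.38, 3.44 and 3.24 FPKM in NS-DADm, against 2.02, 1.16 and 1.69 FPKM in WT (log2 fold change 1.2, SE 0.22, adjusted p = 0.0191, edgeR). It lost its call without NS-DADm 1 or WT 2 (edgeR adjusted p = 0.0787 and 0.0775). Mlana, another such marker, was at 5.34, 0.40 and 9.99 FPKM in NS-DADm 1, 2 and 3, against 0.48, 0.26 and 9.96 FPKM in WT 1, 2 and 3, high in the same 3 libraries as the atrial markers, and Tyr was at most 0.28 FPKM. The lists of cardiomyocyte (5 tested), atrial (5), endothelial (5), fibroblast (5) and mural cell markers (6) had 0 calls with edgeR, with 2, 0, 1, 2 and 4 genes at an unadjusted p under 0.05 (18.1% of all tested genes) and 1, 0, 0, 1 and 1 calls of DESeq2's Wald test. Their median log2 fold changes were -0.06, 1.05, -0.01, 0.0 and -0.1.

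Across the 6 samples, the genes whose log2 expression ran most like Dbh were Penk (Pearson r = 0.994), Iffo1 (0.988) and Mblac2 (0.988), out of 11138 compared. For Pmp22 they were Akt1 (0.992), Ppara (0.991) and Ccl9 (0.989). The nearest genes were Epm2aip1 for Ddc (0.991), Fis1 for Sox10 (0.987), Ldlrad3 for S100b (0.991), Myl1 for Mbp (0.992) and Efna5 for Cnp (0.999). With 6 points, 8 to 76 genes reached an r of 0.95 with any 1 of these genes, so the order among them is only a description.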

How the data were processed

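Gene expression was measured in 3 NS-DADm and 3 WT samples of mouse myocardium, each with a table of genes and of transcripts. The deposited expected counts are the authors' estimated numbers of reads per gene or transcript, per the file headers, and 10.8% to 11.6% of genes per sample had values that were not whole. FPKM values are those counts scaled by feature length and library size by the authors, per the file headers. HISAT is named, with no version, per the submitters' processing notes. For the estimator, the build, the annotation and the strand setting, nothing is given in the sources used here. The lowest listed FPKM was 0.01, and a gene not listed was taken as 0. The 1 row with no symbol, at most 3.2e-04% of counts, was left out. No 2 samples were duplicates: the chi-square of their counts per degree of freedom was at least 3.37.

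Expected counts were rounded and tested, NS-DADm over WT, with the quasi-likelihood test of edgeR 4.0.16 (R 4.3.3; filterByExpr, TMM, Benjamini-Hochberg threshold 0.05), for genes and for transcripts. Fold changes come from this test and levels are FPKM. Single values were compared with exact permutation tests (scipy 1.17.1), and the fits were tested on simulated data. DESeq2 1.42.0, limma 3.58.1 and the other alternatives are in the closing section. Start sites came from GENCODE M21 and sequences and gene overlaps from RefSeq (GRCm38.p6), matched by symbol.

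The 8 genes and 16 lists of related genes were chosen with earlier results of these data known. The rule names the 8 genes, the 3 most abundant and all called genes of each list (lists of other cell types are mostly given by counts and sums instead, and some genes are not reported here), and the 3 genes with the highest Pearson r of log2 CPM to each tested gene (mean FPKM of at least 1). Any other gene, and the split by start site, was chosen after its values were seen.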

Additional observations from a re-analysis of the deposited data

How the results depend on the processing

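Dbh and Pmp22 kept their direction in every alternative run, and their lost calls are given with their results. The count of 420 genes changed became 272 with limma on log2(FPKM + 1), 267 with limma on log2(FPKM + 0.1) and 117 to 382 without 1 sample, and that of 17 transcripts became 883 with DESeq2's Wald test and 3 to 7 without 1 sample. Of the 8 genes, 2 changed, against 1 with a minimum mean FPKM of 1, which drops Dbh, 1 with limma on log2(FPKM + 0.1) and 0 to 1 without 1 sample. The replicate numbers carry no stated pairing, and deviations of same-numbered samples correlated at 0.02, 0.35 and 0.4, with NS-DADm 1 nearer to WT 3 than to WT 1. A replicate block gave 895 genes and 2 transcripts changed, and it changed no call among the 8 genes. With 1 sample left out, log2 fold changes ran from -0.51 to 0.11 for S100b (-0.52 to 0.11 for its transcript), from -0.14 to 0.1 for Cnp (-0.02 to 0.26 for its 2333-base model), from -1.01 to 0.25 for the 2063-base model of Mbp and from -0.83 to 0.83 for its 1985-base model, which was at -0.29 with the block. The cause of these moves was not tested. Restricting the upstream start of Mbp to its longest model, an alternative chosen after seeing the data, gave a difference of 19.3 percentage points in place of 21.3. Depth limits Th, Dbh and the transcript models, which rest on few counts per sample. Exceptions are the 1865-base, 1836-base and 1833-base models of Pmp22 and the 2333-base model of Cnp.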
